A study of Mus musculus with 2 samples.

Results

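The genes described here are those of 6 variants of histone H2A: H2afz, H2afv, H2afx, H2afy, H2afy2 and H2afj. They were chosen by name, H2afz because it carries the conditional allele of the study and the others because they encode variants of the same core histone. All 6 were found by Ensembl identifier among the 19202 genes of the deposited table, and all 6 were among the 14586 genes that reached 1 CPM, the count scaled to a common library size, in the higher library. The libraries came from telencephalic tissue of C57BL/6 mouse embryos at E12, that is embryonic day 12. The floxed control had the genotype H2AZfl/fl, an allele that Cre recombinase can delete, and the H2AZ cKO was the conditional knockout. The sources used here name neither the Cre driver nor the deleted exons nor the cells that recombine, and they do not say whether a column of counts pools several embryos. The design text names triplicates, whereas the table holds a lone count column (here a library) for each of the 2 genotypes, so no difference has a replicate check and no p-value was computed.

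Variant histones replace the ordinary, replication-coupled H2A in a part of the nucleosomes, and unlike it they are made through the whole cell cycle from genes that are usually spliced or polyadenylated. H2A.Z, encoded by H2afz (H2A.Z.1) and H2afv (H2A.Z.2), is loaded around transcription start sites and at enhancers by SRCAP- and EP400-type remodelling complexes. H2A.X, from H2afx, is phosphorylated around DNA breaks. MacroH2A, from H2afy and H2afy2, carries a large extra domain and is known for its enrichment on the inactive X chromosome, and H2A.J, from H2afj, is a variant close to ordinary H2A.

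Whether a drop of H2afz counts can be read apart from those of its paralog depends on how much sequence the genes share. The coding sequences of H2afz and H2afv have the same length of 384 bases without the stop codon, and they carry the same base at 304 positions (79.2% identity). Of the 80 differing positions, 69 are the last position of a codon and 11 an earlier one, and the longest run without a difference is 14 bases. The opening 240 coding bases, taken from GENCODE M21 on GRCm38, are shown because they let the spacing of the differences be seen. Capitals mark the 53 bases at which the genes differ, and the remaining 144 bases hold 27 more.
H2afz: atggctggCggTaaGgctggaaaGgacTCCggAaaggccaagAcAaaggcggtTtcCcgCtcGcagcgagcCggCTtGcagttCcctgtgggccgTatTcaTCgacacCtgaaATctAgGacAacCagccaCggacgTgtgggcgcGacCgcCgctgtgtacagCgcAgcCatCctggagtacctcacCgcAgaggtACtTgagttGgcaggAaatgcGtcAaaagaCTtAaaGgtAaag
H2afv: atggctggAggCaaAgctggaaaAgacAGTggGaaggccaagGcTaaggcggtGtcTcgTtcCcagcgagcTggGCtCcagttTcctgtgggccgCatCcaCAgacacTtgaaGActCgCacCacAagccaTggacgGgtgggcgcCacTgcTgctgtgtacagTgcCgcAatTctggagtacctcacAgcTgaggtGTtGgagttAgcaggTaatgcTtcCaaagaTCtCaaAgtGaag
No stretch of these lines without a capital is as long as 50 bases, and no 50-base window of the H2afv transcript occurs in a transcript of another gene. The H2afz transcript is different: 710 of its 1020 windows of 50 bases (69.6%) also occur in transcripts of 6 other genes. A transcript of Tmcc1 that retains an intron holds 620 of these windows, and the processed pseudogene Gm8203 holds 338. Tmcc1 itself had 705 counts in the cKO library and 782 in the control, and Gm26623, a noncoding gene sharing 222 windows, had 1 count in each library. The sources used here do not say how multiply matching reads were handled, so part of the H2afz reads may be missing from its counts or shared with such copies in both libraries, and the part this plays was not tested.

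H2afz (ENSMUSG00000037894) lies on the plus strand of chromosome 3, from 137864487 to 137866922, in positions that match GRCm38. It had 1664 counts in the H2AZ cKO library, against 2605 in that of the floxed control, from libraries of 8839840 and 8891198 counts. After scaling by the trimmed mean of M-values (TMM), these are 191 CPM and 289 CPM. The targeted gene was thus lower in the library labelled as its knockout, the direction the label gives, with a change of -33.9%, and it was far from absent. The ratio, H2AZ cKO over control throughout, was 0.661 with an exact 95% binomial (Clopper-Pearson) interval of 0.621 to 0.703. Such intervals hold only the error of counting, and without molecular identifiers several reads may come from 1 molecule. The counts cover the whole gene, so reads from exons that the deletion leaves in place are included. In bulk tissue, fewer cells expressing a gene and less RNA per cell cannot be told apart.

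H2afz passed a fold of 1.5 on the log2(CPM + 1) scale, with a log2 ratio of -0.60, as did 3.03% of all tested genes in that direction (442 of 14586). Its counting interval reaches 0.703, a difference smaller than 1.5-fold. Of those 442 genes, 161 reached 5 CPM. Of 2564 genes with a mean of at least 100 CPM, a level chosen after seeing the data, it had the lowest log2 ratio. The intervals of Malat1, Dlk1, Peg3 and Kmt2a overlap its own, so this place is not separable from theirs by counting error. With TMM scaling, H2afz was the only one of the 2564 at least 1.5-fold lower. With DESeq2 size factors or total counts it was again the lowest, and Malat1 also passed that fold, at ratios of 0.659 and 0.651. In that set the 10th and 90th percentiles of the ratio were 0.904 and 1.16. With the joint trend of the ratios on transcript length, GC content and level removed, the log2 ratio of H2afz was -0.75 and again the lowest, of 2563 genes. The plot of all tested genes shows H2afz on the lower fold line at a level where few other genes come near it.

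**Figure D1:**
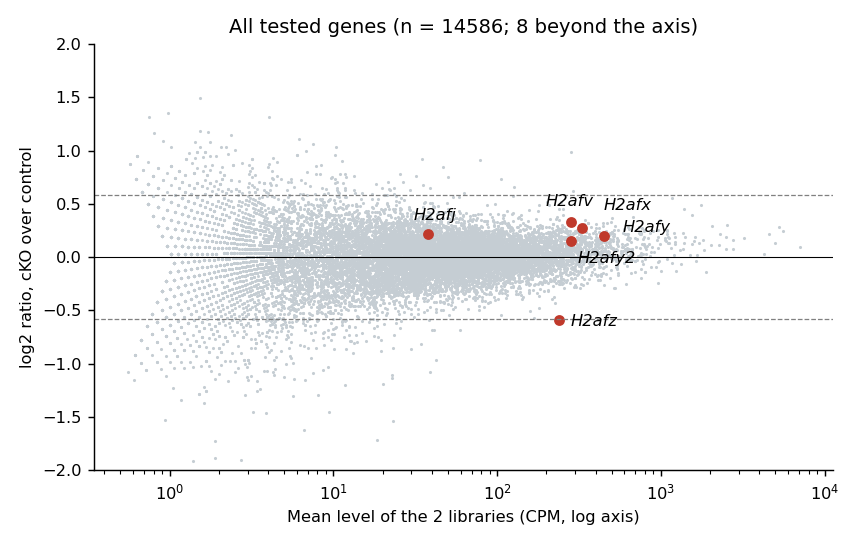
The log2(CPM + 1) ratio of the H2AZ cKO to the floxed control is plotted against the mean level of the 2 libraries (CPM, log axis) for the 14586 tested genes (grey; 8 lie beyond the vertical axis), with the 6 H2A variant genes in red. Dashed lines mark 1.5-fold, which H2afz (-0.60) passes, while the other variant genes lie between 0.15 and 0.33.

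H2afv, the paralog that encodes the other form of H2A.Z, stood on the opposite side of the control. H2afv (ENSMUSG00000041126; minus strand of chromosome 11, 6427229 to 6444443) had 2752 counts against 2270 in the control, or 316 CPM and 252 CPM. It was higher by 25.4%, with a ratio of 1.254 (1.19 to 1.33) and a log2 ratio of 0.33. This was the 46th highest of the 2564 genes at a mean of 100 CPM or more, and the 83rd highest with the joint trend removed, where its log2 ratio was 0.19. No variant gene was 1.5-fold higher, which 1.92% of tested genes were.

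The balance between the H2A.Z genes differed more than either gene alone, and a share within a library does not depend on how libraries are scaled. H2afz made up 37.7% (exact 95% interval 36.2 to 39.1) of the counts of H2afz plus H2afv in the H2AZ cKO and 53.4% (52.0 to 54.8) in the control. Divided by the length of the longest coding transcript, 1069 bases for H2afz and 1633 for H2afv, the shares were 48.0% and 63.7%. H2afz was thus 1.75 times as abundant per length as H2afv in the control and 0.924 times as abundant in the H2AZ cKO. With all annotated exons as the length the shares were 35.7% and 51.3%. On each of these bases H2afz had the larger share in the control and H2afv in the H2AZ cKO. No basis allows for the 50-base windows shared with other genes, 69.6% for H2afz and 0% for H2afv. If such reads were dropped, the share of H2afz is too low in both libraries, so which gene was the more abundant in the H2AZ cKO is not settled.

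The scaled levels can also be added. The difference, H2AZ cKO minus control, was -98.0 CPM for H2afz and 64.0 CPM for H2afv. With TMM scaling and no division by length, the gain of H2afv thus amounted to 65.3% of the loss of H2afz. That percentage is smaller with the CPM as deposited, 188 against 293 for H2afz and 311 against 255 for H2afv. It is also smaller per kilobase of the longest coding transcript, at 179 against 270 CPM per kb for H2afz and 193 against 154 for H2afv. The sum of the H2A.Z genes was 507 CPM, against 541 CPM in the control, a ratio of 0.937 (0.90 to 0.976). Summed per length of transcript, which weights the shorter H2afz more, the ratio was 0.876. These are RNA levels, and protein was not measured here.

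**Figure D2:**
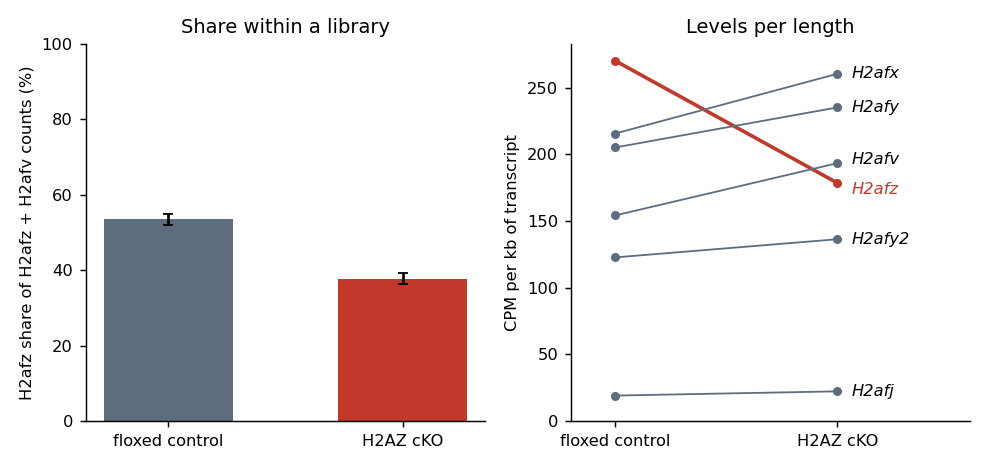
Left, the share of H2afz in the counts of H2afz plus H2afv (percent, bars from 0, error bars are exact 95% binomial intervals), 53.4% in the floxed control and 37.7% in the H2AZ cKO. Right, levels per kilobase of the longest coding transcript (CPM per kb) in each library, where H2afz (red) is in place 1 in the control and place 4 in the H2AZ cKO.

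H2afx encodes H2A.X, the variant marked around DNA breaks. It is a gene of 1 exon (ENSMUSG00000049932; plus strand of chromosome 9, 44334694 to 44336077) with 3141 counts, against 2691 in the control, or 360 CPM and 298 CPM. H2afx was higher by 20.8%, a ratio of 1.21 (1.15 to 1.27). Of the variants it lost most with the joint trend removed, from a log2 ratio of 0.27 to 0.10. Its transcript has 62.3% GC, the highest of the 6, and 9.66% of its 50-base windows occur in transcripts of 43 other genes. Of these 129 windows, 92 are held by Gm44335, a microRNA entry that overlaps H2afx itself on the opposite strand. Some replication-coupled H2A genes hold 82.

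The macroH2A genes were the closest to the control of the 5 others by ratio. H2afy (ENSMUSG00000015937; minus strand of chromosome 13, 56073619 to 56136361) encodes macroH2A1 and had 4194 and 3785 counts in the H2AZ cKO and control, or 481 CPM and 420 CPM, the most counts of any variant gene. Its ratio was 1.15 (1.10 to 1.20). H2afy has 2 annotated coding transcripts, the alternatively spliced macroH2A1 isoforms, which counts per gene do not separate. H2afy2, which encodes macroH2A2 (ENSMUSG00000020086; minus strand of chromosome 10, 61738665 to 61784147), had 2584 and 2406 counts, or 296 CPM and 267 CPM, a ratio of 1.11 (1.05 to 1.18). With the joint trend removed the log2 ratio of H2afy was 0.15, against 0.20 before, and that of H2afy2 was 0.047, against 0.15. H2afy2 overlaps Aifm2 on the opposite strand over 596 bases. Aifm2 had 11 counts in the cKO library, against 41 for the control. Whether counting used strand is not known, and the part of this overlap in the values of H2afy2 was not tested.

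The libraries also differed in transcripts of the sex chromosomes, which bears on macroH2A because of its place on the inactive X. Xist, the RNA that coats that chromosome, had 6384 counts in the cKO library and 200 in the control. Of 4 Y-linked genes, each had 190 to 647 counts in the control and at most 5 in the H2AZ cKO, with Ddx3y at 0, which allows up to 3 counts. By these transcripts the cKO library read as female and the control as largely male. Sex thus went with genotype in this comparison, and the ratios given here, for any gene, do not separate them. The part of sex in the values of H2afy, H2afy2 and the other variant genes was not tested.

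H2afj was the least abundant variant gene and the only one whose interval held 1. H2afj (ENSMUSG00000060032; plus strand of chromosome 6, 136808244 to 136810074) had 354 counts in the cKO library and 314 in the control, or 40.6 CPM and 34.8 CPM. Its ratio of 1.17 (0.999 to 1.36) resembles those of the others in size, and at this depth the difference was not separable from counting error.

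Taking the 6 genes as a set, H2afz was lower and the other 5 were higher in the H2AZ cKO. The interval lay wholly above 1 for 4 of them, as for 12.6% of all tested genes, and wholly below 1 for H2afz, as for 11.2%. Those background shares depend on the scaling. With TMM, 1836 intervals lay above 1 and 1628 below, whereas with total counts 1297 lay above and 2207 below. The same 4 variant genes lay above 1 and H2afz below under TMM, DESeq2 size factors and total counts alike. Because intervals narrow with depth, the set of 2564 genes at a mean of 100 CPM or more is the closer background for the abundant variants. There 32.3% of intervals lay above 1, and 61.5% of genes had a ratio above 1, so ratios above 1 were common among abundant genes. The share of these genes with a log2 ratio as high or higher was 1.79% for H2afv, 4.25% for H2afx, 11.2% for H2afy and 19.3% for H2afy2. The median log2 ratio of the 5 genes other than H2afz was 0.22, against 0.04 in that set and 0.01 over all tested genes. With the joint trend removed it was 0.15, with all 5 still above 0, against -0.01 for all genes.

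In the authors' deposited table, H2afz had a fold change of 0.643 and an adjusted p of 3.20e-43, H2afv 1.22 and 3.08e-10, H2afx 1.17 and 7.95e-08, and H2afy 1.11 and 5.47e-05. H2afy2 (fold change 1.08, adjusted p 0.0577) and H2afj (1.13, 0.338) did not pass 0.05 in the authors' deposited table. There 9.55% of the 19202 genes passed, in either direction. Those p-values compare 1 column with 1 column by a test the sources used here do not name, so they speak of these libraries and not of the genotypes.

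**Figure D3:**
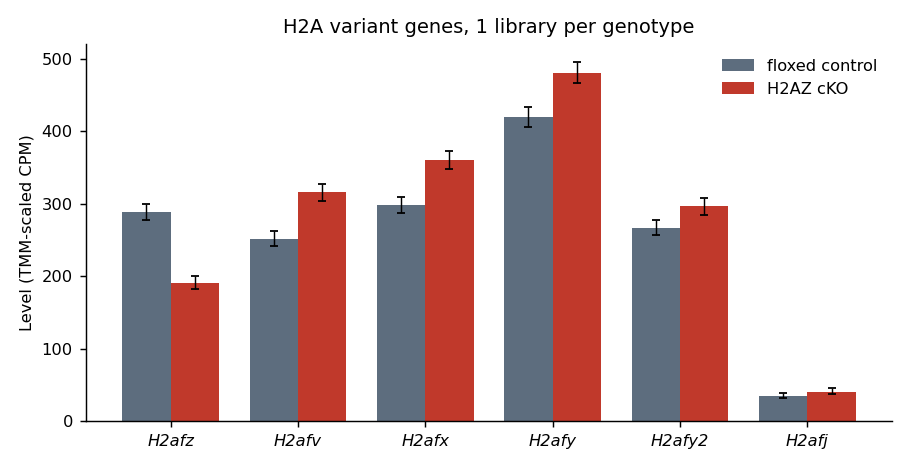
Scaled level (CPM) of each H2A variant gene in the floxed control (grey) and the H2AZ cKO (red), 1 library per genotype, with error bars that show exact 95% counting intervals. H2afz is the only gene of the 6 with the taller bar in the control, 289 CPM against 191 CPM.

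**Figure D4:**
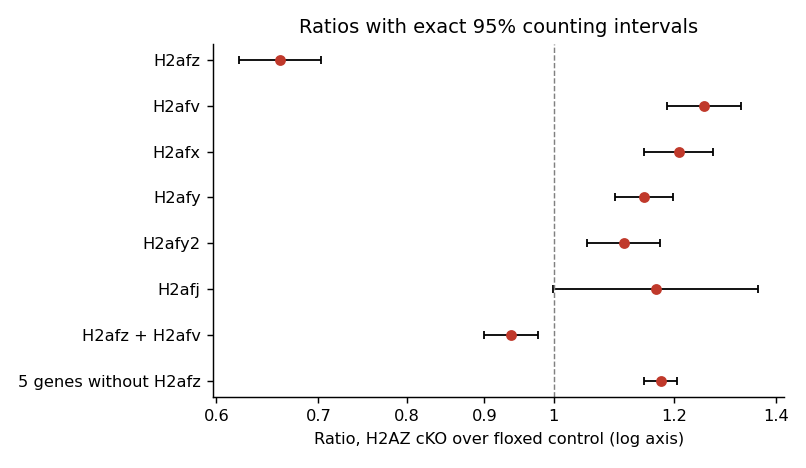
Ratio of H2AZ cKO over floxed control (log axis) for each variant gene, for H2afz plus H2afv and for the 5 genes other than H2afz, with exact 95% counting intervals and a dashed line at 1. H2afz lies at 0.661, and the interval of H2afj alone among single genes crosses the line.

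The variant genes were next compared with one another inside each library, which removes the scaling. Of 15 pairs, the 5 that involve H2afz all had intervals that excluded 1. The level of H2afz relative to H2afv was 0.527 times that of the control (0.485 to 0.573). Relative to H2afy2, the gene nearest to the control, it was still 0.595 times (0.547 to 0.647), and the values against H2afx, H2afy and H2afj lay between these. Of the 10 pairs without H2afz, 3 had intervals that excluded 1, and they were small: H2afv against H2afy differed by a factor of 1.09 (1.02 to 1.18), H2afv against H2afy2 by 1.13 (1.04 to 1.22) and H2afx against H2afy2 by 1.09 (1.01 to 1.17). Any pair of the 5 other variants thus differed far less than H2afz did from each of them.

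Per kilobase of the longest coding transcript, H2afz was the most abundant variant in the control, at 270 CPM per kb. H2afx (216) and H2afy (205) came next and did not differ from each other beyond counting error, with a ratio of 1.05 (0.999984 to 1.10). H2afv (154), H2afy2 (123) and H2afj (19.0) followed. In the H2AZ cKO, H2afx led at 260 CPM per kb, followed by H2afy (235), H2afv (193), H2afz (179), H2afy2 (136) and H2afj (22.2). H2afz thus went from place 1 to place 4. H2afv and H2afz were close there, at a ratio of 1.08 (1.02 to 1.15). These intervals between genes hold only counting error. They leave out the unequal sharing of windows with other genes, 69.6% for H2afz and 0% for H2afv, whose part in the order was not tested. When the union of all annotated exons was used as the length, which is long for H2afy, H2afz went from place 2 behind H2afx, and not separable from H2afv, to place 4. Of the counts of all 6 genes together, H2afz took 18.5% in the control and 11.3% in the H2AZ cKO. The 6 genes summed to 1685 CPM against 1560 CPM, a ratio of 1.08 (1.06 to 1.11), while the 5 without H2afz gave 1.18 (1.15 to 1.21).

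The genes nearest to H2afz in scaled level over both libraries were Zfp462, Hjurp and Apc, at distances of 0.162, 0.237 and 0.245 on the log2(CPM + 1) scale. Zfp462 was at 191 CPM, against 258 CPM in the control, a ratio of 0.742 (0.696 to 0.79). With 2 libraries this likeness says no more than that the levels were similar. Setd2, the H3K36 methyltransferase named with H2A.Z in the study's title, was at 133 CPM against 149 CPM, a ratio of 0.894 whose interval (0.826 to 0.968) lies above that of H2afz.

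The promoters of the H2A.Z genes, of which H2afz carries the conditional allele, are shown to compare the upstream sequence of the paralogs. Their part in the ratios was not tested. RefSeq (GRCm38.p6) sequence of the 250 bases before the start was matched by name for 5 of the variant genes, all but H2afx. Capitals mark CCAAT or its reverse complement ATTGG, the motif bound by NF-Y. The H2afz stretch is chr3:137864237-137864486 on the plus strand, and the H2afv stretch is chr11:6444512-6444693 on the minus strand, without the 68 bases nearest the start. Those 68 bases lie downstream of an earlier RefSeq start of H2afv, inside the annotated gene.
H2afz promoter: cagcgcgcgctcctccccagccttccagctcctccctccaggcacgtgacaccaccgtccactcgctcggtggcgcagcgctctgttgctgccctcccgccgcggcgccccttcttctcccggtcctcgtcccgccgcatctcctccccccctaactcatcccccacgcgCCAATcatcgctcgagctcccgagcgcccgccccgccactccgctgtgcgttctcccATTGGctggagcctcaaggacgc
H2afv promoter: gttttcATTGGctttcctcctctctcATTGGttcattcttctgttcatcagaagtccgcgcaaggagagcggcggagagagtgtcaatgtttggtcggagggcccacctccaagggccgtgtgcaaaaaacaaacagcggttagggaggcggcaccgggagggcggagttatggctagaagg
H2afz holds 2 matches, 80 and 23 bases before its start. H2afv holds 4 in its 250 bases, of which those at 244 and 224 bases before the start are in the printed stretch. Its matches at 59 and 17 lie in the 68 bases left out, so they are not upstream of every annotated start. H2afj holds 3. H2afy and H2afy2 hold none. On either strand, 34.5% of 27025 RefSeq promoters hold CCAAT in their full 250 bases. At least 2 matches are in 10.5% and at least 3 in 2.98%, with no part left out. Also searched, on both strands, were GGGCGG (in 32.9% of promoters), TATAAA (13.0%) and CACGTG (6.05%). H2afz alone of the 5 holds CACGTG, at 1 match, and none holds TATAAA. The matches are a description of the sequence, and factor binding was not measured.

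The machinery around the variants was read from lists of genes by role, by counts and medians and without a test. All 24 listed genes of H2A.Z exchange, the remodellers and chaperones that load or remove H2A.Z, were tested, and none was 1.5-fold higher or lower, beside 1.92% and 3.03% of all tested genes. Of these, 16 were above the control and 8 below. Of the 24, 7 had an interval above 1 and 6 had one below 1. Over all tested genes the intervals above and below 1 were 12.6% and 11.2%, and at a mean of 100 CPM or more 32.3% and 16.1%. The ATPases that drive loading were on the lower side: Ep400 stood at 172 CPM against 216 CPM and Srcap at 7.46 CPM against 10.4 CPM, ratios of 0.80 (0.747 to 0.856) and 0.715 (0.513 to 0.992). Yeats4, a subunit that reads acetylated histones, stood at 203 CPM against 166 CPM, and Actr6, a subunit of the SRCAP complex, at 24.4 CPM against 20.2 CPM with an interval that held 1 (0.989 to 1.48). The list's median log2 ratio was 0.12, and 0.06 with the joint trend removed.

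Among readers of H2A.Z nucleosomes, Brd2, at 393 CPM against 398 CPM, and Pwwp2a, at 43.3 CPM against 46.1 CPM, had intervals that held 1, as had Pwwp2b at 6.42 CPM against 5.43 CPM. For H2A.X signalling, the kinases, ubiquitin ligases and phosphatases that write, read and erase the phosphorylated form, 20 genes were tested, 6 above and 14 below the control. Of the 20 genes, 2 had an interval above 1 and 5 had one below 1. Over all tested genes these shares were 12.6% and 11.2%, and at a mean of 100 CPM or more 32.3% and 16.1%. Atm, a kinase of H2A.X, was 1.5-fold lower or more, at 114 counts against 203 (ratio 0.581, 0.458 to 0.734), and so was the phosphatase Eya4, at 18 counts against 38. These are 2 of 20 genes, beside 3.03% of all tested genes. Prkdc, another kinase of H2A.X, stood at 21.2 CPM against 28.8 CPM, and the ubiquitin ligase Rnf8 at 16.3 CPM against 12.6 CPM. H2afx itself was on the higher side, and Atm and Prkdc on the lower. The kinases Atr (0.973, 0.811 to 1.17) and Baz1b (0.98, 0.927 to 1.04), outside the rule for named genes, had intervals that held 1. With the joint trend removed, the log2 ratio of Prkdc was -0.26, against -0.42 before. The list's median log2 ratio was -0.03, or -0.0009 with the joint trend removed.

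Among 9 tested partners and splicing regulators of macroH2A, 6 were above and 3 below the control. Of the 9 genes, 4 had an interval above 1 and 2 had one below 1. Over all tested genes these shares were 12.6% and 11.2%, and at a mean of 100 CPM or more 32.3% and 16.1%. Chd1l, a remodeller that carries a macrodomain, stood at 19.8 CPM against 15.3 CPM (ratio 1.30, 1.03 to 1.63), and the remodeller Hells at 78.5 CPM against 69.0 CPM. Atrx, a remodeller known to keep macroH2A off some regions, was at 217 CPM against 245 CPM (0.886, 0.833 to 0.942). Mbnl1, a splicing factor, had an interval that held 1, at 22.8 CPM against 26.6 CPM.

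Ordinary H2A could hardly be read here: of 20 listed replication-coupled H2A genes, 4 were in the table and only Hist3h2a was tested, at 35.1 CPM against 36.3 CPM. None of 6 further listed H2A variants had an entry in the table. Variant histones outside the H2A family were all on the higher side, as were the 5 H2A variants other than H2afz. Of 5 tested, all at a mean above 100 CPM, where 32.3% of intervals lay above 1, all had such intervals: H1fx, a linker histone, at 291 CPM against 203 CPM (ratio 1.43, 1.35 to 1.52), H3f3a and H3f3b, which encode H3.3, at ratios of 1.22 and 1.17, the linker histone gene H1f0 at 1.19, and Cenpa, the centromeric H3, at 1.15. Their median log2 ratio was 0.26, and 0.18 with the joint trend removed, beside 0.22 and 0.15 for the 5 H2A variants.

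Genes of proliferation were on the higher side as well. Of 15 tested, 14 were above the control, and 12 of the 15 had an interval above 1. The latter share was 12.6% over all tested genes and 32.3% at a mean of 100 CPM or more. The median log2 ratio was 0.23, or 0.16 with the joint trend removed. Cdk1, the mitotic kinase, stood at 159 CPM against 121 CPM, Ccnd1 at 123 CPM against 96.5 CPM, Slbp, which binds histone mRNA, at 97.2 CPM against 76.4 CPM, and Birc5 at 105 CPM against 85.6 CPM. Mki67, outside the rule for named genes and added because it is the list's one exception, was at 431 CPM against 447 CPM. The part of dividing cells in the higher levels of the 5 H2A variants was not tested.

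**Figure D5:**
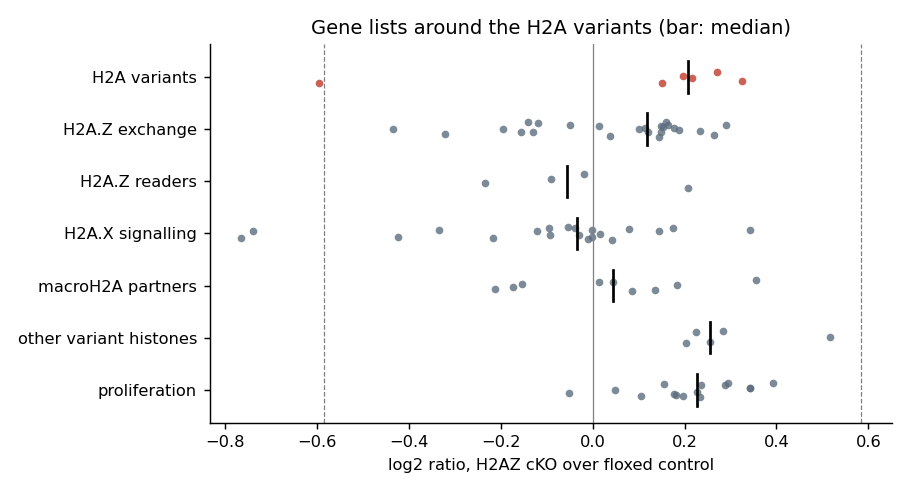
Each point is the log2(CPM + 1) ratio of the H2AZ cKO to the control for 1 tested gene, by list, with black bars at the medians, dashed lines at 1.5-fold and points spread vertically for visibility. H2afz (-0.60) is the lone red point left of 0, and the other H2A variants lie between 0.15 and 0.33.

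Markers of the tissue and of other cell types were read in both libraries. All 10 telencephalic markers were present at 93.7 CPM or more in both, summing to 3242 CPM in the cKO library and 2965 CPM in the control. Markers of diencephalon and hypothalamus were lower in 8 of 8, at 34.1 CPM against 83.1 CPM in sum, with Nkx2-4 at a count of 0 in the H2AZ cKO. These markers were picked with earlier results of these data known, so their agreement depends on the choice. Nkx2-1, which is not among them, went the other way, at 155 CPM against 97.9 CPM. Erythroid markers were higher in 7 of 7 (547 CPM against 286 CPM) and macrophage markers in 6 of 7 (35.3 CPM against 24.1 CPM). Of the macrophage markers counted as higher, Aif1 had 9 counts in both libraries and was higher only by the scaling. The median log2 ratio over all tested genes was 0.01. Endothelial (89.5 CPM against 92.3 CPM) and mesenchymal markers (10.4 CPM against 12.8 CPM) had summed ratios whose counting intervals held 1. The part of these differences in the values of the variant genes was not tested.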

How the data were processed

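The members and gene lists were chosen with earlier results of these data known. Per the labels' protocols, libraries were made with an Illumina TruSeq RNA kit from 2 ug of total RNA, and dissected cerebral cortex is named there, while the tissue label reads telencephalic. TopHat2 2.0.12, Bowtie2 2.2.3, HTSeq 0.6.0 and the build mm9 are named in the submitters' processing notes, yet 78.7% of the table's positions are identical to GENCODE M21 on GRCm38. The sources used here do not say whether counting used strand. The authors deposited whole-number read counts per gene, CPM values, their ratio (fold change), its log2, a p-value and an adjusted p-value. Per the file headers the other count column is called WT. It was read as H2AZfl/fl, since no further genotype is in the series.

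From the counts (8839840 in the H2AZ cKO, 8891198 in the control), TMM factors of 0.986 and 1.01 came from edgeR 4.0.16 in R 4.3.3, with DESeq2 1.42.0 size factors and total counts as alternatives. Ratios and their exact 95% intervals, from the scaled counts, were computed in Python 3.11.15 with scipy 1.17.1. Log2 ratios use a pseudocount of 1 CPM for genes at 1 CPM or more in either library. With 1 library per genotype no test was run. Intervals, fold calls and trend removal were tried on simulated Poisson counts, a check of the code only. Such counts hold the very error that the intervals assume, with no spread between embryos and no duplicate reads. Quadratic trends in log2 transcript length, GC content and level were removed together as an alternative. Transcripts were compared in windows of 50 bases with GENCODE M21 transcripts of other genes, since no genome sequence was used here. Matches on either strand counted, so a gene that overlaps a member on the opposite strand counted as sharing. Genes named are the 6 members, Setd2, genes overlapping a member, pseudogenes in the table, the 3 nearest to H2afz in level without predicted genes, and of each list the tested genes farthest from a log2 ratio of 0, up to 4, or every tested gene of lists of 5 or fewer. A result that the rule would name is not reported here. Further genes are named as markers or as sharing sequence with H2afz.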

Additional observations from a re-analysis of the deposited data

How the results depend on the processing

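Over 6 alternatives (DESeq2 size factors, total count, the CPM as deposited, pseudocounts of 0.1 and 5 CPM, and removal of the joint trend), none of the 6 variant genes turned its direction. The log2 ratio of H2afz ran from -0.75 to -0.59 and those of the others from 0.047 to 0.33. Removing the trend moved H2afz to -0.75, H2afv to 0.19, H2afx to 0.10 and H2afy2 to 0.047, beyond their counting intervals. The share of H2afz among the H2A.Z genes was 48.0% in the H2AZ cKO and 63.7% in the control per coding transcript length, and 35.7% and 51.3% per union of exons, an alternative chosen after seeing the data.

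Over all genes, 442 were at least 1.5-fold lower and 280 higher. These became 161 and 90 at a floor of 5 CPM, 816 and 590 with a pseudocount of 0.1 CPM, 59 and 29 with 5 CPM, 1428 and 1158 at a smaller fold, and 70 and 22 at 2-fold. At a mean of 100 CPM or more, a level chosen after seeing the data, they were 1 and 5, and 413 intervals lay below 1 and 827 above. At that level 2 genes, H2afz and Malat1, were 1.5-fold lower with DESeq2 size factors or total counts, scalings applied there after seeing the data. With windows of 100 bases, the shared percentage was 58.8 for H2afz, 4.67 for H2afx, 4.06 for H2afy, 6.55 for H2afy2 and 2.42 for H2afj. All 79 shared windows of H2afy were in Gm47071, all 136 of H2afy2 in Aifm2 and all 42 of H2afj in Gm44364. Each of these genes overlaps that member on the opposite strand, so such windows are not copies elsewhere. A search of a genome sequence was not run. No paired analysis was possible because there is 1 library per genotype, and for the same reason no library could be left out. Depth limits H2afj most, whose interval runs from 0.999 to 1.36.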

Other observations

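Among genes at a mean of 100 CPM or more, the genes next to H2afz on the lower side were looked up after their values were seen. Malat1, a nuclear noncoding RNA, was at 134 CPM in the cKO library, against 201 CPM in the control, a ratio of 0.67 (0.622 to 0.721). The imprinted genes Dlk1 and Peg3 followed at 0.685 (0.623 to 0.751) and 0.701 (0.649 to 0.756), and then Kmt2a, an H3K4 methyltransferase, at 0.717 (0.668 to 0.77). The intervals of Malat1, Dlk1, Peg3 and Kmt2a all overlap that of H2afz, so the place of H2afz as the lowest is not separable from these by counting error. The 5 genes of that level at least 1.5-fold higher were Xist, the embryonic globin gene Hbb-y (ratio 1.99), the interneuron gene Sst (1.67), the ventral telencephalic factor Nkx2-1 (1.58) and the mitochondrial ribosomal RNA mt-Rnr2 (1.54).

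H2afy3, a processed pseudogene of the macroH2A family on chromosome 15, shares 142 windows of 50 bases with H2afy2 and had 5 counts in the cKO library and 2 in the control.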
